A study of Mus musculus with 4 samples.

Results

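The genes described here drive DNA replication and cell division. The set holds 39 genes, of which 19 belong to S phase, 13 to mitosis and 7 to G1, and they were chosen by name from the textbook machinery of the cell cycle. Probe sets that the platform annotation maps to exactly 1 of these genes were taken, and of several for 1 gene the one with the highest mean value over the 4 arrays was used. In this way 38 members were measured among 12393 named genes, and no probe set was assigned to the mitotic cyclin gene Ccnb1. The RNA came from CD8 T cells sorted from the spleens of female C57BL/6 mice aged 8 to 12 weeks. One group received TCDD (2,3,7,8-tetrachlorodibenzo-p-dioxin, a dioxin that activates the aryl hydrocarbon receptor, AHR) at 10 µg/kg into the peritoneum, the other received only the solvent DMSO by the same route, and both were killed 24 h later. Each group has 2 arrays, titled with the numbers 1 and 2, and the cells of 4 mice were pooled for a group. Whether the arrays of a group hold separate pools of cells is not stated in the labels, so the spread between them may be technical. Each p-value reflects only that spread, taken from the gene's own values and from all probe sets together.

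A cell that leaves quiescence first raises D-type cyclins, which with CDK4 and CDK6 inactivate the retinoblastoma protein and so free E2F transcription factors. E2F switches on the genes that license origins, synthesise deoxynucleotides and copy DNA. The genes of mitosis, which act later in the cycle, are governed in part through CHR elements, bound by DREAM and MuvB complexes, and CCAAT boxes. Resting splenic CD8 T cells are mostly out of the cycle, held there in part by the CDK inhibitor p27, and enter it quickly on antigen contact. In other cell types the AHR has been described as slowing the passage from G1 to S phase, in part through contact with the retinoblastoma protein and through induction of p27, which is the background to asking how these genes stood after TCDD.

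The promoter windows of S phase and mitotic members differed in how often they held the words searched for E2F and for CHR elements, although neither word was in every window of a class or in 1 class alone. RefSeq promoter windows of 300 bases, 250 before and 50 after each transcription start in the mouse build GRCm38.p6, were matched by symbol for 34 of the 39 members, and 33 of these were measured. Below are 2 windows of S phase helicase genes with the searched E2F sites in capitals, 2 of mitotic genes with CHR elements and CCAAT boxes in capitals, and 1 of the G1 cyclin gene Ccne1 with the core of the AHR binding element in capitals.
Mcm6, chr1:128359656-128359955 (- strand): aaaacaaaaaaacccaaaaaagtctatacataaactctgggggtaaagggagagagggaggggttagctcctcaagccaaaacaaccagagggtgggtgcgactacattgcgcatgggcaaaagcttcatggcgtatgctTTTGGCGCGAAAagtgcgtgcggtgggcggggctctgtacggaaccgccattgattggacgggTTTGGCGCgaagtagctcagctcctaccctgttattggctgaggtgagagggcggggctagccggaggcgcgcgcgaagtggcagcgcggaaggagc
Mcm7, chr5:138171834-138172133 (- strand): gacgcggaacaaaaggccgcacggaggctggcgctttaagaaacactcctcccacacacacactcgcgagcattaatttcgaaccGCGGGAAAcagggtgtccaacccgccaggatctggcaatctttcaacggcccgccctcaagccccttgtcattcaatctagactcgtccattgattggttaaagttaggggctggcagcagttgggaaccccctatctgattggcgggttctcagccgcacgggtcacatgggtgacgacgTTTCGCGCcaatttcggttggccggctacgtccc
Cdk1, chr10:69352863-69353162 (- strand): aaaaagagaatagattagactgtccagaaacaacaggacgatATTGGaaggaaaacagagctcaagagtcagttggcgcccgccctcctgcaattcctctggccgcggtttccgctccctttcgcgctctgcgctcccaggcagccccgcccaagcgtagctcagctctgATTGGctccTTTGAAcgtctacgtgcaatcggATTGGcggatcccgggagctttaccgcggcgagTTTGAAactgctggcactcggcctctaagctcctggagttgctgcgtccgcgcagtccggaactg
Ccnb2, chr9:70421505-70421804 (- strand): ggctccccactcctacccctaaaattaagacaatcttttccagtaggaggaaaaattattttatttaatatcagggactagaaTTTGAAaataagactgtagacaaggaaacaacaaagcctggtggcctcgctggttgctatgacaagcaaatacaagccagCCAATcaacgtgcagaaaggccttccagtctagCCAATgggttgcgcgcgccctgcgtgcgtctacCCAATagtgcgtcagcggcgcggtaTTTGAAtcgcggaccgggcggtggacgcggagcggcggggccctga
Ccne1, chr7:38107441-38107740 (- strand): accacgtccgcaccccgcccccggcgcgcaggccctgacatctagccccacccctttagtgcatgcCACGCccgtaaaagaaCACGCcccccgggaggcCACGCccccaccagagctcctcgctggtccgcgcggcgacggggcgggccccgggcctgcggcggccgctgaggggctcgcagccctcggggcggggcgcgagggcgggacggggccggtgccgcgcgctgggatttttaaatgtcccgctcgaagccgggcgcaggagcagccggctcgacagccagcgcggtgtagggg
The E2F sites searched were TTTCGCGC, TTTGGCGC and TTTCCCGC, the CHR element was TTTGAA, the CCAAT box was CCAAT and the AHR core was GCGTG, each on both strands. None of these words contains another, although 2 E2F sites can overlap on opposite strands, as they do in the Mcm6 window, which holds 3.

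An E2F site stood in 8 of the 21 windows of S phase members (38.1%), against 2.95% of the 12566 windows of all genes on the array. It stood in 1 of 11 mitotic windows, that of Cdk1, and in 0 of 8 G1 windows. CHR elements showed the other distribution, with 8 of 11 mitotic windows (72.7%), 3 of 21 S phase windows (14.3%) and 0 of 8 G1 windows, against 12.9% for genes on the array. CCAAT boxes were in 10 of 11 mitotic windows (90.9%) and 12 of 21 S phase windows (57.1%), against 37.1%. The AHR core was present in 9 of 21 S phase, 6 of 11 mitotic and 5 of 8 G1 windows, against 45.3% for genes on the array. The median GC content was 57.3% in the S phase, 57.7% in the mitotic and 66.8% in the G1 windows, and 59.0% over genes on the array. Genes of the same pathway outside the member set gave like shares, with E2F sites in 27.5% of 40 further S phase windows and CHR elements in 73.5% of 34 further mitotic windows. The further G1 genes did not resemble the G1 members in this, with an E2F site in 28.6% of their windows. These matches are descriptions of the sequence and not binding sites. The measured difference between TCDD and DMSO had a median of −0.015 over the 17 measured members with an AHR core in a window and of −0.03 over the 16 without one, on the log2 scale. Over all genes with a window these medians were 0.01 and 0.015.

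**Figure D1:**
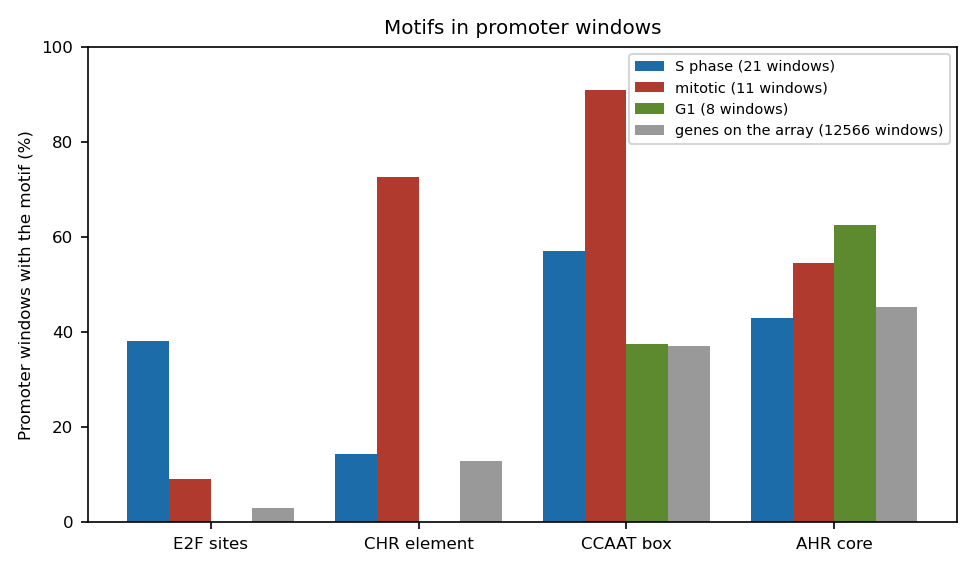
Share of promoter windows (percent) that hold a searched E2F site, CHR element, CCAAT box or AHR core, for the windows of S phase, mitotic and G1 members and of all genes on the array. E2F sites reach 38.1% in S phase windows and CHR elements 72.7% in mitotic windows.

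No member was detected as changed after TCDD. All differences are of the mean deposited log2 RMA values, TCDD minus DMSO, tested with limma over 22626 probe sets with Benjamini-Hochberg adjustment, and 0 of 38 members passed the threshold of 0.05, as did 0.0% of all genes. The lowest adjusted limma p among the members was 0.9973. At an unadjusted limma p under 0.05 there was 1 member, Mcm4, where the share over all genes was 2.11%. It was lower after TCDD (background 1.28%), and 0 members were higher at this level (background 0.823%). The median difference was 0.005 over the 19 S phase members, −0.0625 over the 12 mitotic members and −0.015 over the 7 G1 members, beside 0.01 over all 12393 genes. The median size of the difference regardless of sign was 0.0775 for the members and 0.09 for all genes. The 2 groups of arrays did not overlap for 5 members, beside 24.9% of all genes. TCDD was on the lower side for 4, Mcm2, Mcm4, Prim1 and Bub1 (background 12.0%), and on the higher side for 1, Mcm6 (background 12.9%). A difference of at least 0.2 in size was measured for 8 members (background 19.8%).

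The 95% limits describe the precision of the probe sets used, given the spread between these arrays, which limma moderates towards that of all probe sets. For 35 of 38 members the 95% limits from limma lay within a 2-fold change in either direction, as they did for 93.4% of all genes. The 3 exceptions were Pcna, Cdt1 and Cdkn1b, each with 1 TCDD array far from the other. A two-sided permutation test of 2 arrays against 2 has 0.3333 as its smallest p and was not used. These are values of bulk RNA, in which fewer cycling cells and less of a transcript in each cycling cell cannot be told apart. RMA values have no true zero and compress differences near the low end. The probe sets of 26 members had a mean above 6.01, the median of all probe sets (background 59.6%), and those of Mcm5, Cdc6, Cdc45, Pola1, Tyms, Ccnb2, Aurka, Aurkb, Bub1, Bub1b, Birc5 and Cdk6 did not.

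**Figure D2:**
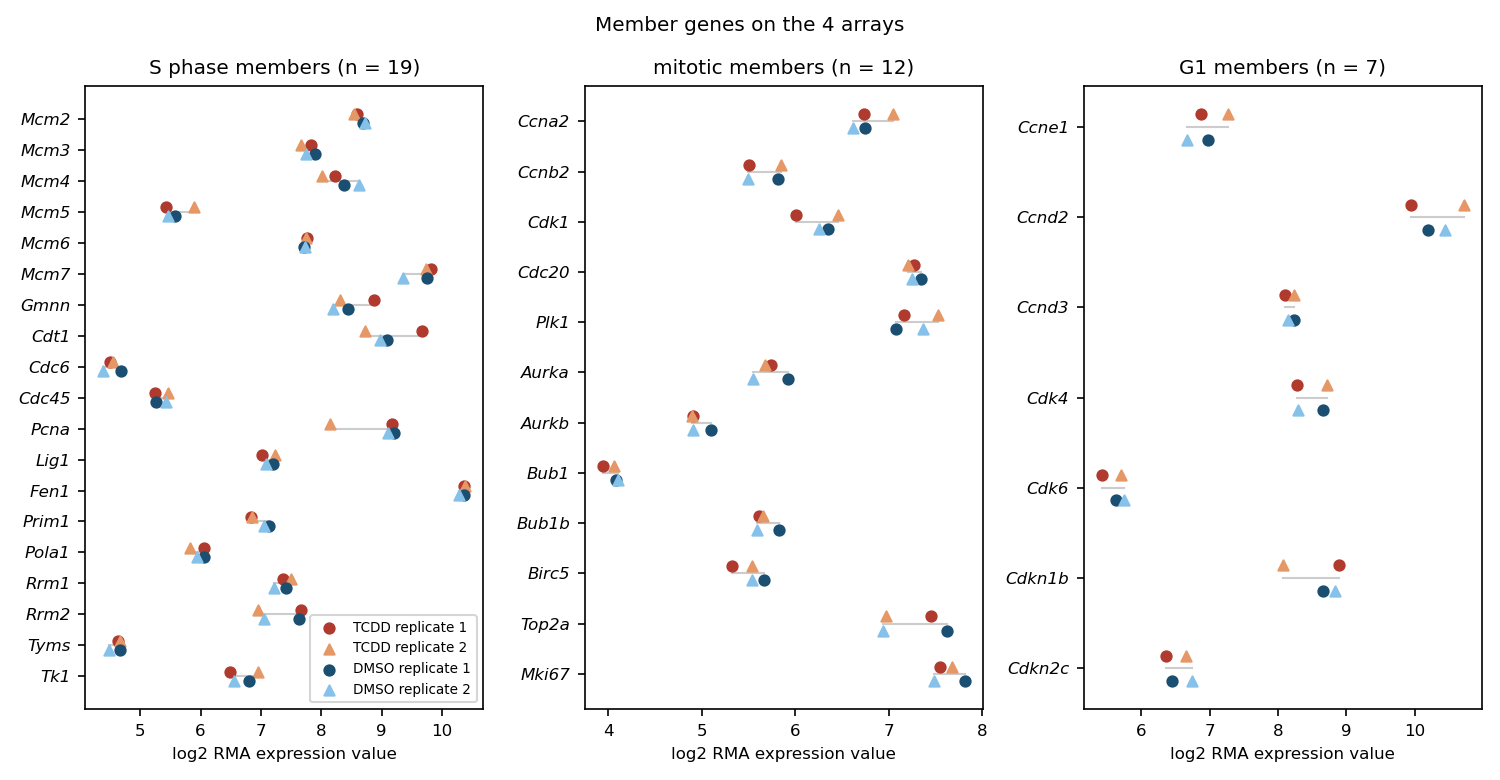
Log2 RMA expression value (x axis) of every measured member on the 4 arrays, with S phase, mitotic and G1 members in separate panels, circles for the arrays numbered 1 and triangles for those numbered 2. The 4 values of most genes lie close together, and Pcna and Cdkn1b have 1 low value, at 8.14 and 8.07 in TCDD replicate 2.

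The first S phase group is the helicase and the factors that load it on origins. MCM2 to MCM7 form the ring that unwinds DNA, and their genes went in different directions. Mcm4 measured 8.23 and 8.02 in TCDD replicates 1 and 2 and 8.38 and 8.63 in DMSO replicates 1 and 2. Both TCDD arrays were lower, by −0.38 in the fit, with a lower 95% limit of −0.76 and an upper limit just under 0. Mcm2 measured 8.59 and 8.55 after TCDD and 8.69 and 8.72 after DMSO, so both TCDD arrays were again lower, by −0.135 (95% limits −0.398 and 0.128). Mcm6 measured 7.76 and 7.75 after TCDD and 7.71 and 7.73 after DMSO. Its groups were separate in the other direction but by only 0.035 (limits −0.225 and 0.295). Mcm7 measured 9.82 and 9.73 after TCDD and 9.76 and 9.35 after DMSO, a difference of 0.22 that rested on the low DMSO replicate 2. Mcm3 differed by −0.075 and Mcm5 by 0.145, with overlapping arrays for both.

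The genes of the loading factors lay on both sides of 0. CDT1 brings the helicase to origins, CDC6 takes part in loading it, geminin (Gmnn) blocks CDT1 once S phase has begun, and CDC45 activates the loaded helicase. Gmnn measured 8.87 and 8.31 after TCDD and 8.44 and 8.20 after DMSO, higher within both title numbers but with overlapping groups, and differed by 0.27 (limits −0.308 and 0.848). Cdt1, the gene of the protein that geminin blocks, measured 9.67 and 8.72 after TCDD and 9.09 and 8.97 after DMSO. The TCDD arrays held both the highest and the lowest value of Cdt1, so its difference of 0.165 had wide limits of −0.688 and 1.018. Cdc6 and Cdc45, with probe sets below the median level, differed by −0.015 and 0.005.

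Genes of DNA synthesis at the fork were close to 0 apart from Pcna and Prim1. PCNA is the sliding clamp that holds polymerases on DNA. Pcna measured 9.17 and 8.14 after TCDD and 9.20 and 9.11 after DMSO, so 3 arrays agreed within 0.1 and TCDD replicate 2 stood apart. Its difference of −0.50 had limits of −1.415 and 0.415, and it was 0.015 without TCDD replicate 2 and −1.015 without TCDD replicate 1. Prim1, the catalytic subunit of the primase that starts each new strand, measured 6.84 and 6.85 after TCDD and 7.13 and 7.05 after DMSO. The means were 6.845 ± 0.0071 and 7.09 ± 0.057 (SD, n = 2 each). Both TCDD arrays were lower, the difference of −0.245 exceeded the spread within either group, and its limits were −0.513 and 0.023. The polymerase alpha gene Pola1 differed by −0.06, the DNA ligase gene Lig1 by −0.015 and the flap endonuclease gene Fen1 by 0.05. Fen1 ran only from 10.29 to 10.39 over the 4 arrays.

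The enzymes of deoxynucleotide supply differed by between −0.045 and 0.125, and their groups overlapped. Rrm1 and Rrm2 encode the subunits of ribonucleotide reductase. Rrm2 measured 7.66 and 6.95 after TCDD and 7.64 and 7.06 after DMSO, so it followed the title number and not the treatment. Its difference was −0.045 (limits −0.865 and 0.775). Rrm1 differed by 0.125, the thymidylate synthase gene Tyms by 0.07 and the thymidine kinase gene Tk1 by 0.035.

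**Figure D3:**
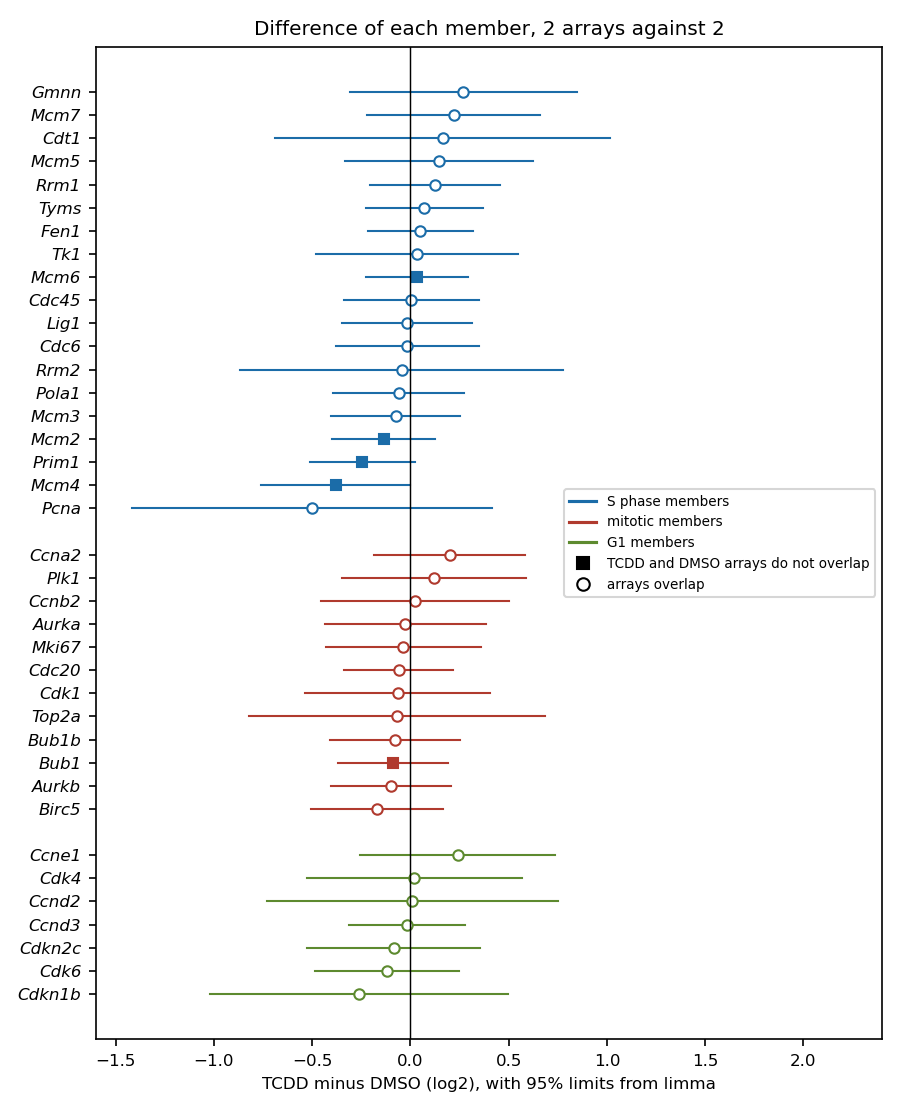
TCDD minus DMSO (log2, x axis) for each measured member with 95% limits from limma, S phase members in blue, mitotic in red and G1 in green, and filled squares where both TCDD arrays lie beyond both DMSO arrays. The differences run from −0.50 for Pcna to 0.27 for Gmnn, and 35 of 38 intervals stay within 1 log2 unit of 0.

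The mitotic members spread less than the S phase members, with an SD over genes of 0.101 against 0.193. Genes of the same pathway outside the member set had the reverse order, with 0.251 for mitotic and 0.210 for S phase genes. The probe sets of 6 of 12 mitotic and 14 of 19 S phase members had a mean above the median level. All 12 mitotic members had 95% limits within 2-fold. Cyclin A2, cyclin B2 and their kinase CDK1 drive entry into mitosis. Ccna2 measured 6.73 and 7.04 after TCDD and 6.75 and 6.62 after DMSO, a difference of 0.20 (limits −0.186 and 0.586) that came from TCDD replicate 2. Ccnb2 measured 5.51 and 5.85 after TCDD and 5.82 and 5.49 after DMSO, so its groups covered the same range. Cdk1 measured 6.01 and 6.46 after TCDD and 6.35 and 6.25 after DMSO, and differed by −0.065. Of the kinases, Plk1 measured 7.16 and 7.52 after TCDD and 7.08 and 7.36 after DMSO. It was higher within both numbers, by 0.08 and 0.16, with overlapping groups. The Aurora kinase genes Aurka and Aurkb differed by −0.025 and −0.10.

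Among genes of the spindle checkpoint, Bub1 measured 3.94 and 4.06 after TCDD and 4.08 and 4.10 after DMSO. Both TCDD arrays were lower, but the difference of −0.09 was no larger than that between the TCDD arrays, and the probe set lies near the low end. Bub1b, which encodes the checkpoint kinase BUBR1, differed by −0.08 and Birc5 (survivin, which works with Aurora B) by −0.17. Cdc20, the activator of the anaphase-promoting complex, differed by −0.06. The proliferation markers followed no treatment. Mki67, which encodes the Ki-67 antigen of cycling cells, measured 7.55 and 7.67 after TCDD and 7.81 and 7.48 after DMSO, a difference of −0.035 (limits −0.43 and 0.36). Top2a, the topoisomerase that untangles chromosomes, measured 7.45 and 6.97 after TCDD and 7.62 and 6.94 after DMSO, so like Rrm2 it was lower in both arrays numbered 2.

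All 7 G1 members had overlapping groups. Ccne1, the cyclin that carries cells into S phase, measured 6.87 and 7.26 after TCDD and 6.98 and 6.67 after DMSO, a difference of 0.24 (limits −0.256 and 0.736). Ccnd2, a D-type cyclin of lymphocytes, measured 9.94 and 10.72 after TCDD and 10.20 and 10.44 after DMSO. By this probe set the TCDD arrays again held both the highest and the lowest value, and the difference was 0.01. Ccnd3, the D-type cyclin needed for expansion of thymocytes, differed by −0.015, and the kinase genes Cdk4 and Cdk6 by 0.02 and −0.12. Of the inhibitors, Cdkn1b, which encodes p27, measured 8.89 and 8.07 after TCDD and 8.65 and 8.83 after DMSO. It was higher after TCDD within number 1, by 0.24, and lower within number 2, by −0.76, so that the difference of −0.26 had limits of −1.018 and 0.498. Without TCDD replicate 2 it was 0.15. Cdkn2c, which encodes the CDK4 and CDK6 inhibitor p18, differed by −0.085.

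Within the title numbers the classes lay on different sides of 0 in the 2 pairs of arrays. Between the arrays numbered 1 the median difference was −0.03 for S phase, −0.185 for mitotic and −0.13 for G1 members, against −0.03 over all genes. Between those numbered 2 it was 0.03, 0.095 and 0.10, against 0.05 over all genes. Of the 12 mitotic members 11 were lower after TCDD within number 1, all but Plk1, where 55.3% of all genes were lower and 41.9% higher. Within number 2, 3 of the 12 were lower (background 39.8%), 8 were higher (background 58.4%) and Birc5 did not differ. The lower values within number 1 went with DMSO replicate 1, in which 7 of 12 mitotic members had their highest value (58.3%), as did 15.7% of all genes. No label says what the numbers stand for, and the part of this array in the result was not tested. Without DMSO replicate 1 the mitotic median was 0.0175 and without DMSO replicate 2 it was −0.1675. The S phase median was 0.085 and −0.075 without these arrays, and the G1 median ran from −0.195 without TCDD replicate 2 to 0.06 without TCDD replicate 1.

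More members were lower than higher after TCDD within both numbers, and the largest share went opposite ways. Of the 38 members, 11 were lower within both (28.9%, background 20.2%) and 4 were higher within both (10.5%, background 22.6%). Another 21 went opposite ways (55.3%, background 52.7%), while Fen1 and Birc5 had no difference within 1 number (5.26%, background 4.52%). The 11 were Mcm2, Mcm3, Mcm4, Pcna, Prim1, Pola1, Cdc20, Aurkb, Bub1, Cdk6 and Cdkn2c, and the 4 were Mcm6, Mcm7, Gmnn and Plk1. The 98 measured pathway genes outside the member set were near balance, with 23 lower within both (23.5%) and 21 higher within both (21.4%). The members opposite between the numbers included Ccne1 (−0.11 and 0.59), Cdk4 (−0.38 and 0.42), Tk1 (−0.32 and 0.39) and Cdt1 (0.58 and −0.25). Across the 38 members the Pearson correlation between the 2 sets of differences was −0.309, and across all genes it was −0.0757. The genes of a correlation share their arrays and are not independent replicates. Comparing the numbers within a treatment, 11 members were lower in number 2 than in number 1 in both treatments (background 19.3%) and 6 were higher (background 29.5%).

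**Figure D4:**
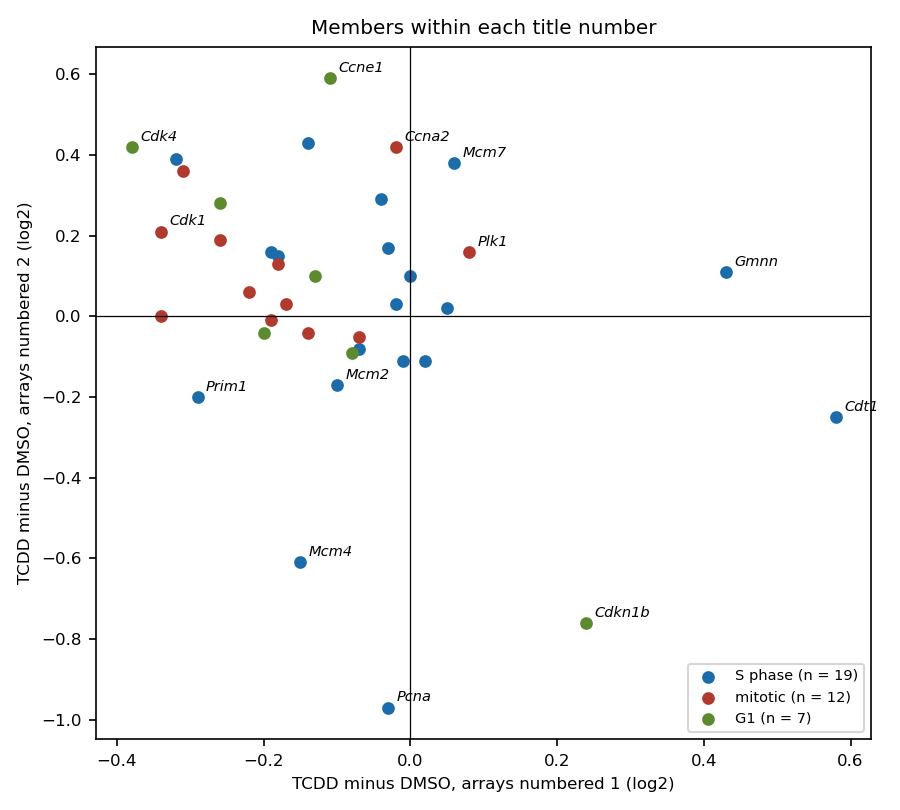
TCDD minus DMSO (log2) between the arrays numbered 1 (x axis) against that between the arrays numbered 2 (y axis), 1 point per measured member, coloured by class. Of the 12 mitotic members 11 lie left of 0, and 21 of 38 members lie in the quadrants of opposite direction.

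Other probe sets of the same genes bear on the helicase result. Of the 38 members 19 had more than 1 probe set, and in 8 of these a further one, also above the median level, differed in the opposite direction. The identifiers of 13 of the probe sets used carry a suffix letter, which marks probes shared between transcripts or similar to other sequences. For Mcm2 the probe set without such a letter measured 6.65 and 6.60 after TCDD and 7.04 and 6.99 after DMSO, lower by −0.39 within each number. For Mcm6 it measured 7.12 and 6.92 after TCDD and 7.27 and 7.42 after DMSO, a difference of −0.325 where the probe set used above gave 0.035. By probe sets without a suffix letter Mcm2, Mcm4 and Mcm6 were thus each lower in both TCDD arrays, by −0.39, −0.38 and −0.325, and none passed the adjustment (lowest adjusted limma p among members with these probe sets 0.9977). These 3 were singled out after their values were seen. Mcm3 has 3 such probe sets, all below the median level, which differed by 0.02, −0.06 and −0.13, the last with both TCDD arrays lower. The single probe set of Mcm5, without a suffix letter and also below the median level, differed by 0.145. Mcm7 has none, and its 4 probe sets differed by between 0.09 and 0.235. Over all 72 probe sets of the members, 3 had an unadjusted limma p under 0.05, namely 1 each of Mcm2, Mcm4 and Cdc20, beside 1.94% of all 22626 probe sets. The other probe set of Mcm4, which has a suffix letter, differed by 0, at 0.51 within number 1 and −0.51 within number 2.

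Probe sets also differed in direction for Prim1, Cdc20, Rrm1 and Ccna2, among others. Prim1 differed by −0.245 by the probe set used and by 0.225 by the other one, whose groups overlapped. For Cdc20 a probe set with a suffix letter measured 7.37 and 7.44 after TCDD and 7.10 and 6.62 after DMSO, a difference of 0.545, while the other 2 differed by −0.06 and −0.045. Rrm1 differed by 0.125 by the probe set used and by −0.09 by the other one, with both TCDD arrays lower. For Ccna2 these values were 0.20 and −0.025, with overlapping groups in both. The 7 probe sets of Ccnd2 ran from −0.265 to 0.15, and each was higher in number 2 than in number 1 in both treatments. The lower values of Top2a in number 2 came from the probe set used. Its other one, below the median level, measured 5.47 and 5.48 after TCDD and 5.56 and 5.52 after DMSO. The probe sets of Tyms, Bub1 and Top2a lay within 0.1 of each other.

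**Figure D5:**
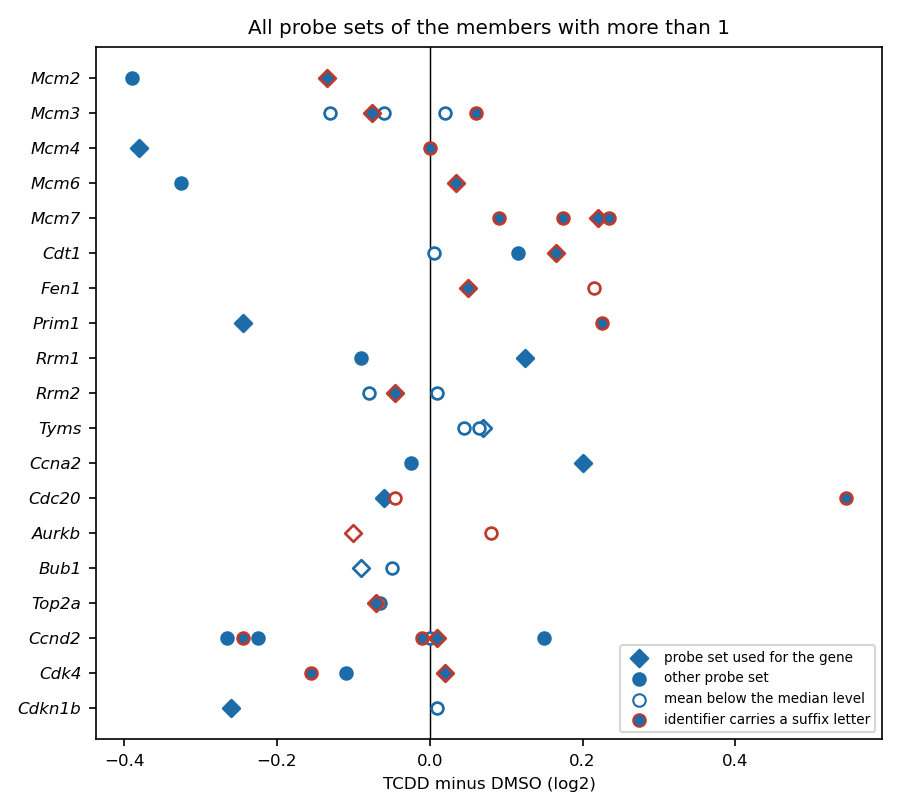
TCDD minus DMSO (log2, x axis) for all probe sets of the 19 members with more than 1, with diamonds for the probe set used, open symbols for a mean below the median level and red edges for an identifier with a suffix letter. Mcm6 has 0.035 and −0.325, and Cdc20 has 0.545 beside −0.06 and −0.045.

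Of 98 measured genes of the same pathway outside the member set, 0 passed limma, and 3 had an unadjusted limma p under 0.05 (3.06%), namely Dut, Cdc7 and Smc4, all lower. Over all genes 2.11% had such a p, and 1.28% had it with a lower value. Their median difference was −0.015. Both TCDD arrays were lower for 16 of them and higher for 8 (background 12.0% and 12.9%). Within both title numbers 23 of them were lower and 21 higher (background 20.2% and 22.6%). Of the 35 further S phase genes, Dut, the dUTPase that keeps uracil out of DNA, measured 6.82 and 6.78 after TCDD and 7.26 and 7.58 after DMSO. This difference of −0.62 was larger than the spread in either group (95% limits −0.997 and −0.243, adjusted p = 0.9973 by limma). Cdc7, the kinase that fires origins, measured 6.33 and 6.00 after TCDD and 6.56 and 6.83 after DMSO, a difference of −0.53. On the other side stood Dck, the deoxycytidine kinase of nucleotide salvage, at 0.445, and the polymerase delta gene Pold1 at 0.27. Without TCDD replicate 1 Dck was at 0.085, and without DMSO replicate 2 Pold1 was at 0.13.

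Of the 36 further mitotic genes, 23 were lower after TCDD within number 1 (63.9%, background 55.3%) and 14 within number 2 (38.9%, background 39.8%), both shares near those of all genes. The condensin gene Smc4 was at −0.98, which was −0.53 without TCDD replicate 2 and −1.43 without TCDD replicate 1. The CDK subunit gene Cks1b was at −0.37 with overlapping groups, and at −0.155 without DMSO replicate 2 and −0.165 without TCDD replicate 2. Its paralogue Cks2 was at 0.69 and the centromere histone gene Cenpa at 0.345. Both of these moved as arrays were left out, and Cenpa was at −0.20 without TCDD replicate 1. Cks2 was at 0.08 without DMSO replicate 2 and at 1.3 without DMSO replicate 1. In both treatments Cks2 was lower in number 2 than in number 1, at −1.18 for TCDD and −1.22 for DMSO. Cks2 measured 10.44 and 9.26 after TCDD and 9.77 and 8.55 after DMSO, so within number 1 TCDD was higher by 0.67 and within number 2 by 0.71, with overlapping groups. Of the 27 further G1 genes, the inhibitor gene Cdkn2d, which encodes p19, measured 6.86 and 7.47 after TCDD and 7.71 and 7.69 after DMSO, a difference of −0.535. Myc, which drives growth and entry into the cycle, measured 7.0 and 7.61 after TCDD and 7.86 and 7.79 after DMSO, a difference of −0.52. For both, the TCDD arrays were lower and TCDD replicate 1 was the lowest, and without it Cdkn2d was at −0.23 and Myc at −0.215. On the higher side Cdkn1a, which encodes the p53 target p21, differed by 0.21 with overlapping groups, and by −0.155 without TCDD replicate 1. Ccnh, the cyclin of the CDK-activating kinase, and Cdk2, the kinase partner of cyclin E, tied at 0.17. The groups overlapped for Ccnh, whose difference was 0.0 without DMSO replicate 2 and 0.34 without DMSO replicate 1. Cdk2 measured 6.57 and 6.55 after TCDD and 6.35 and 6.43 after DMSO, so both TCDD arrays were higher, within number 1 by 0.22 and within number 2 by 0.12. None of these genes passed limma.

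The sorted cells expressed the defining T cell genes, with all 8 measured CD8 T cell markers between 8.16 and 10.90 on every array. Their median difference was −0.1675, both TCDD arrays were lower for 3 of the 8 (background 12.0%), and their mean level was 9.21 and 9.64 on the TCDD arrays and 9.66 and 9.76 on the DMSO arrays. Within number 1 all 8 were lower after TCDD (background 55.3%), with a median of −0.44. Of the 8, 6 had their lowest value in TCDD replicate 1 (background 32.3%) and 2 their highest in DMSO replicate 1. In the same pair of arrays 11 of 12 mitotic members were lower. Of those 12, 3 had their lowest value in TCDD replicate 1 and 7 their highest in DMSO replicate 1. Within number 2, 4 CD8 T cell markers were lower and 4 higher. Thy1, at −0.70, and Cd8a, at −0.73, were the 2 of these 8 with an unadjusted limma p under 0.05 (background 2.11%, lower 1.28%). No marker passed the adjustment. Cd8a has 2 probe sets, of which only the one with the higher mean is given. The part of these markers in the members' values was not tested. Lists for other spleen cells that could lie in the sort were also read. Erythroid markers had a median difference of 0.005 over 7 genes and B cell markers −0.03 over 7. The median was −0.07 over 5 germinal centre and plasma cell markers, 0.0925 over 8 myeloid and 0.0125 over 4 CD4 T cell markers. Of the 7 B cell markers 6 were lower after TCDD within number 1 (background 55.3%) and 2 within number 2 (background 39.8%). Both TCDD arrays were higher for 3 of the 8 myeloid markers (background 12.9%) and lower for 0. These were Lyz2 at 0.555, Cd68 at 0.15 and Itgax at 0.13. Within number 1, 5 of the 8 were higher (background 41.9%), and within number 2, 7 (background 58.4%). Csf1r, with overlapping groups, lay between 7.35 and 8.72. The part of these myeloid markers in the members' values was not tested. Neutrophil markers had the mean levels 6.02 and 6.29 on the TCDD arrays and 5.95 and 7.11 on the DMSO arrays, with the high value in DMSO replicate 2. S100a8, at 8.67 there and 5.45 in DMSO replicate 1, and S100a9, at 7.80 and 4.61, carried most of it, while Elane was at 6.98 and 6.94 and Mpo at 6.18 and 5.97. The plasma cell gene Jchain was also higher in DMSO replicate 2, at 8.04 against 5.48 in DMSO replicate 1. The rest of its list did not share a rise of that size. Sdc1 was at 6.92 against 6.63, Xbp1 at 8.01 against 8.0, Prdm1 at 5.22 against 5.33 and Irf4 at 5.25 against 6.66. In DMSO replicate 2, 6 of 12 mitotic members had their lowest value, as did 28.0% of all genes, and the part of this array in their result was not tested.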

How the data were processed

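Gene expression was measured in 4 Affymetrix arrays of RNA from sorted splenic CD8 T cells, 2 after TCDD and 2 after DMSO, assigned by their titles. Per the labels' protocols, FACS gave cells of a purity above 99%, and their RNA was amplified with a MessageAMP kit before labelling. The authors deposited log2 values made with RMA, per the submitters' processing notes. Version and settings are not given in the sources used here. That the scale is log2 rests on the range of the values, 3.09 to 14.62. The array medians lay between 5.98 and 6.04. Precision is limited by the number of arrays.

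Of 22690 probe sets, 64 controls were left out, 20380 had 1 gene symbol in the platform annotation, 691 had several and 1555 were unnamed here. The Entrez identifiers matched RefSeq symbols (GRCm38.p6) with 0 changes. All 22626 probe sets were fitted with lmFit and eBayes of limma 3.58.1 (R 4.3.3), without covariates or a filter on low values, with Benjamini-Hochberg adjustment and a threshold of 0.05. On simulated data with added differences, this step was checked only for the size of the estimated differences, and not for the share called. All measured members were named, and of the other pathway genes the 2 highest and the 2 lowest differences in each class above the median level, with Cdk2 added for a tie. Leaving out arrays for these other genes was chosen after seeing the data. Background shares are over 12393 genes, 1 probe set each. Alternatives were a replicate block, median centring, quantile normalisation, a filter at the median level, a variance trend with robust fitting, averaging the probe sets of a gene, removal of probe sets with a suffix letter, and each array left out. The group that loses an array keeps 1, taken to vary as the arrays of the other group do. The members and lists were chosen with earlier results of these data known.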

Additional observations from a re-analysis of the deposited data

How the results depend on the processing

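The count of members past limma's adjusted threshold was 0 of those measured under every alternative run, with adjusted p of 0.7954 or more. The count at an unadjusted limma p under 0.05, which was 1, was 0 with the replicate block, with arrays centred on their medians, above the median level and with a variance trend, 2 without probe sets with a suffix letter (Mcm2 and Mcm4), and 0 to 2 as arrays were left out. The titles share numbers, but no label says what they stand for. The deviations of same-numbered arrays from their group means correlated at 0.234 over all probe sets (Pearson), and with 2 pairs the numbers were not taken to pair the samples. The replicate block left every difference as it was and called 0 members. The median differences of the 3 classes moved by less than the spread between replicates under all settings but the left-out arrays, where S phase ran from −0.075 to 0.085 and G1 from −0.195 to 0.06. A further quantile normalisation turned Cdc45 to −0.005, Lig1 to 0.0013 and Ccnd3 to 0.005. Averaging the probe sets of a gene turned Mcm6 to −0.145, Cdc20 to 0.1467, Ccnd2 to −0.0836 and Cdk4 to −0.0817. Probe sets without a suffix letter, which 33 members have, turned Mcm3 to 0.02, Mcm6 to −0.325, Rrm2 to 0.01 and Cdk4 to −0.11. As arrays were left out, 13 members kept their sign and 25 did not, with these ranges: Mcm3 −0.16 to 0.01, Mcm5 −0.085 to 0.375, Gmnn −0.01 to 0.55, Cdt1 −0.31 to 0.64, Cdc6 −0.165 to 0.135, Cdc45 −0.1 to 0.11, Pcna −1.015 to 0.015, Lig1 −0.12 to 0.09, Pola1 −0.17 to 0.05, Rrm2 −0.4 to 0.31, Tyms −0.015 to 0.155, Tk1 −0.195 to 0.265, Ccnb2 −0.145 to 0.195, Cdk1 −0.29 to 0.16, Plk1 −0.06 to 0.3, Aurka −0.21 to 0.16, Bub1b −0.2 to 0.04, Top2a −0.41 to 0.27, Mki67 −0.2 to 0.13, Ccnd2 −0.38 to 0.4, Ccnd3 −0.085 to 0.055, Cdk4 −0.195 to 0.235, Cdk6 −0.26 to 0.02, Cdkn1b −0.67 to 0.15, Cdkn2c −0.235 to 0.065. For the 5 members whose groups did not overlap the sign could not turn. The cause of these changes was not tested.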
